A study of Mus musculus with 6 samples.

Results

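The 44 genes described here license, fire and copy DNA replication origins or control the step from G1 into S phase. They were matched by gene symbol to a list of names, a rule that uses no threshold on measured values, and all 44 were found among the 39089 genes of the deposited table. RNA was measured by poly(A)-selected sequencing of RAW264.7 cells, a mouse macrophage-like leukaemia line labelled wild type. In 3 libraries the cells had 48 h of lipopolysaccharide (LPS, an endotoxin of bacteria) at 100 ng/mL and also low-intensity pulsed ultrasound (LIPUS), applied at 45 mW/cm2 in 2 sessions of 25 min with 24 h between them. The other 3 libraries came from cells with the same LPS and no ultrasound. Every library is therefore from LPS-treated cells of 1 line, and no untreated cells are among them. The labels do not say whether the replicates were separate cultures, so p-values measure the spread between these libraries, which may be technical.

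Replication origins are licensed in G1, when the origin recognition complex with Cdc6 and Cdt1 loads the Mcm2 to Mcm7 helicase onto DNA. Cdc45 and the GINS complex then switch the helicase on. Clamp, clamp loader, primase, flap nuclease and ligase take part in copying the strands behind it. Entry into this programme is gated by cyclin D with Cdk4 and cyclin E with Cdk2, which inactivate the retinoblastoma protein and release E2F factors, and E2F factors drive transcription of many of the replication genes. Macrophages commonly leave the cell cycle on strong activation, while RAW264.7 is a dividing line.

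Because E2F sites are what many of these genes are known to share, promoters are shown before the values. RefSeq windows on GRCm38.p6, from 250 bases before to 50 bases after a transcription start, were given for 32 of the 44 genes. The letters TTTCCCGC, TTTGGCGC, TTTCGCGC and TTTGCCGC, common forms of the E2F site, were searched on both strands and may overlap each other. They were found for 11 of the 32 genes (34.4%), against 2.6% of all 27025 genes with a window. The genes were Cdc6, Cdk2, Cdt1, Gins3, Lig1, Mcm3, Mcm5, Mcm6, Mcm7, Orc1 and Rfc3. CCAAT, the core of the NF-Y site, was in the windows of 21 of the 32 genes (65.6%) and of 41.1% of all genes, and CACGTG, the E-box that Myc can bind, in 6 (18.8%) and 8.09%. Such a match describes the letters and shows no binding. Below are windows of the pair of genes with an E2F match whose groups did not overlap (Cdc6 and Gins3) and of the 2 Mcm genes with overlapping matches on opposite strands (Mcm5 and Mcm6), each 5′ to 3′ along the gene with the E2F letters in capitals. They lie at chr11:98907901-98908200 (Cdc6, plus strand), chr8:95633309-95633608 (Gins3, plus strand), chr8:75109259-75109558 (Mcm5, plus strand) and chr1:128359656-128359955 (Mcm6, minus strand).
Cdc6: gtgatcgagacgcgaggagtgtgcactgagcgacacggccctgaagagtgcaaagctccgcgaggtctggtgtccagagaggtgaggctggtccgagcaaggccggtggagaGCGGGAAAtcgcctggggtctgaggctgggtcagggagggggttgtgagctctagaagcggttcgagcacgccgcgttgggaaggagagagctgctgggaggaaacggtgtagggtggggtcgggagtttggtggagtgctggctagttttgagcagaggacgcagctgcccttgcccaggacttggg
Gins3: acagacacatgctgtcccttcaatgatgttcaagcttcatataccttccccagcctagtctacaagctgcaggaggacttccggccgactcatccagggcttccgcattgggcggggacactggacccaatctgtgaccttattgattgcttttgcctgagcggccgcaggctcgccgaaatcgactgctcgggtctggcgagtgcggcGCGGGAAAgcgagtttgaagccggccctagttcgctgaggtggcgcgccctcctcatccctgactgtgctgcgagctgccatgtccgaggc
Mcm5: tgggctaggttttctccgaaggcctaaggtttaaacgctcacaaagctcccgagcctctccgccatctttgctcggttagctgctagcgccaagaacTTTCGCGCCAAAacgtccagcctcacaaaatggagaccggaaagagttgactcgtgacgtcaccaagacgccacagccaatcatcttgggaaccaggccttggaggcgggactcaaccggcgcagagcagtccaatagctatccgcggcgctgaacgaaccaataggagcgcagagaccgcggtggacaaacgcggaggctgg
Mcm6: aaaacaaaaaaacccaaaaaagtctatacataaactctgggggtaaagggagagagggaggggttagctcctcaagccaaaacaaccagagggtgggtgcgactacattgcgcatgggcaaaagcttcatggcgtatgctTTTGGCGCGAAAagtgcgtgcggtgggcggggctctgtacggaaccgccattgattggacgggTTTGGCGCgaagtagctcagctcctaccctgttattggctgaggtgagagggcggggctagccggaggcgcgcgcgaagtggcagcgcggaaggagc
Positions are given from the transcription start of the window. The match in Cdc6 begins 138 bases before that start and the match in Gins3 41 bases before it. For Cdc6 the window, from 98907901, lies wholly inside the deposited gene, which begins at 98907709. The Cdc6 match is thus within the deposited gene and not upstream of it. The same holds for Orc1 (window from 108579204, gene from 108575705) and for the matching window of Lig1 (from 13278576, gene from 13277175). Some windows counted in the shares above therefore lie inside the deposited gene. In Mcm5 the overlapping pair begins 153 and 149 bases before the start, and in Mcm6 a like pair begins 110 and 106 bases before it, with a further match at 47.

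Libraries held 14171061 to 15956693 counts over all genes, and these genes took 0.148% to 0.153% of them in every library. The 8 macrophage markers examined were all tested, and their summed level was 10801 to 12330 CPM (counts scaled to library size, with TMM factors) with LIPUS and 11469 to 11944 CPM with LPS alone. Markers of T cells, B cells and epithelium were at or near 0: none reached 1 CPM in sum in any library, with Cd4, Cd8a, Ms4a1, Epcam, Krt8, Krt18 and Cdh1 at 0 counts throughout. Fibroblast markers summed to 1.63 to 2.90 CPM with LIPUS and 1.84 to 2.67 CPM with LPS.

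The question put to the 2 groups is whether ultrasound goes with a different level of the replication programme in LPS-treated cells. No gene of the programme differed past the test. Every one of the 44 genes had enough counts to be tested. With Benjamini-Hochberg adjustment over all 12571 genes tested, edgeR's quasi-likelihood test called 0 of the 44, where the share called over all genes was also 0%. None of the 44 had an unadjusted p below 0.05, against 4.61% of all genes tested, and every adjusted p was 0.999. Log2 fold changes (LIPUS over LPS) ran from -0.23 for Tyms to 0.34 for Cdc6, with 21 positive and 23 negative. Their median was -0.01, against -0.01 over all genes tested, and 52.3% of them were negative, against 52.4% of all genes. In bulk RNA, fewer cells in a phase and less RNA per cell cannot be told apart.

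The intervals say how large a change the data leave room for. For 41 of the 44 genes the 95% interval stayed inside 1.5-fold in both directions, as it did for 10066 of all 12571 genes tested and for 8833 of the 9427 within the CPM range of the 44. For all 44 it stayed inside 2-fold. The 3 genes with an interval beyond 1.5-fold were Cdc6, Mcm10 and Tyms, each with a mean under 5 CPM in both groups. Of the 6 Mcm2 to Mcm7 genes, Mcm6 had the interval that reached farthest from 0, to 1.19-fold, and the interval of Pcna reached 1.09-fold.

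**Figure D1:**
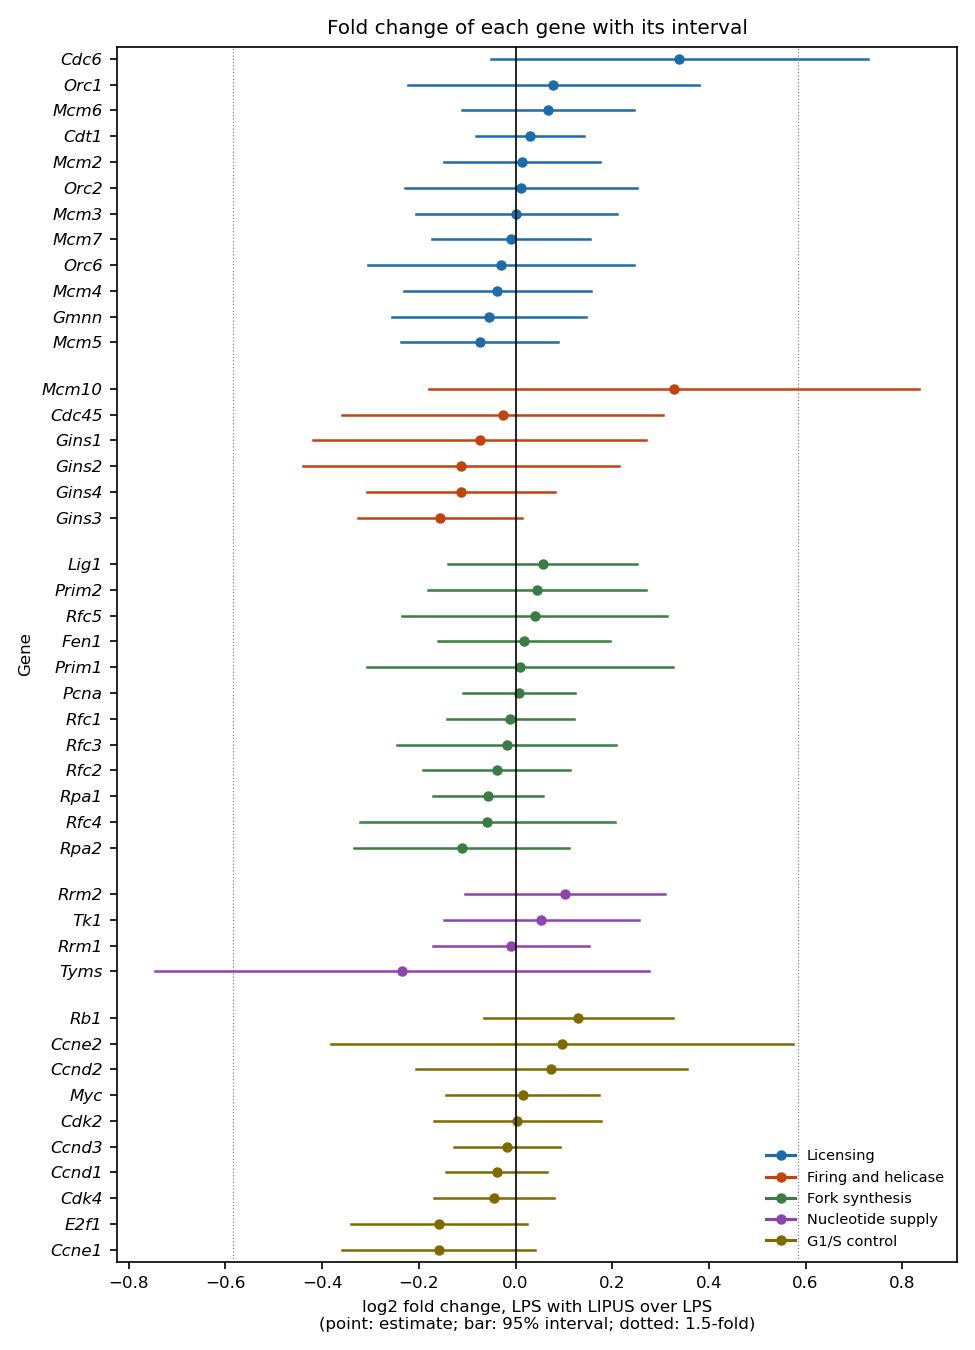
Points give the log2 fold change, LIPUS over LPS, of each of the 44 genes and bars its 95% interval from edgeR's quasi-likelihood fit, by role; dotted lines mark 1.5-fold. All 44 intervals include 0, and those of Cdc6, Mcm10 and Tyms pass the dotted lines.

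Of the 12 licensing genes, 7 lay above and 5 below 0, the median being 0.01 (log2 fold change), and 0 were called. Cdc6, the loader that recruits the helicase to origins (mm10, chromosome 11, 98907709 to 98923942, plus strand), had the smallest p of them. It had 71, 58 and 62 counts with LIPUS and 55, 59 and 47 counts with LPS, which is 4.83, 4.07 and 4.28 CPM against 3.50, 3.75 and 3.16 CPM. All 3 LIPUS libraries lay above all 3 LPS libraries, as they did for 5.09% of all genes tested. Its means were 4.39 ± 0.39 and 3.47 ± 0.29 CPM (SD, n = 3 each), and the difference was 0.34 ± 0.19 (log2 fold change with SE, 95% interval -0.05 to 0.73, unadjusted p = 0.085, adjusted p = 0.999). In the authors' deposited table Cdc6 has a log2 fold change of 0.34 and an unadjusted p of 0.0486, the only p below 0.05 among the 44, and it is not among the 351 genes that the authors' deposited table lists as changed; none of the 44 is.

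Cdt1, the partner of Cdc6 in helicase loading, was the most abundant licensing gene, at 96.2, 93.5 and 92.8 CPM with LIPUS and 88.3, 95.2 and 93.0 CPM with LPS. The groups overlapped, and the difference was 0.03 ± 0.05 (log2 fold change with SE, 95% interval -0.08 to 0.14). Gmnn, which encodes the Cdt1 inhibitor geminin, was at 17.2 ± 0.78 CPM with LIPUS and 17.9 ± 1.10 CPM with LPS (SD, n = 3 each). Per length, Cdt1 exceeded Gmnn 2.57- to 2.99-fold in every library, by 2.89 ± 0.09 times in LIPUS libraries and 2.73 ± 0.21 times in LPS libraries (SD of the TPM ratio, n = 3 each). The origin recognition genes Orc1, Orc2 and Orc6 had log2 fold changes of 0.08 ± 0.14, 0.01 ± 0.11 and -0.03 ± 0.13 (SE).

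The 6 genes of the helicase core lay close to 0. Mcm2 had 26.7, 26.8 and 26.9 CPM with LIPUS and 26.1, 26.7 and 26.8 CPM with LPS, so that the groups overlapped within a range of less than 1 CPM. The log2 fold changes were 0.01 ± 0.08 for Mcm2, 0.00 ± 0.10 for Mcm3, -0.04 ± 0.09 for Mcm4, -0.07 ± 0.08 for Mcm5, 0.07 ± 0.08 for Mcm6 and -0.01 ± 0.08 for Mcm7 (SE). Their products form a ring with 1 copy of each, and their levels per length were within about a factor of 2: the ratio of Mcm5, the highest by its mean, to Mcm6, the lowest, was 1.76 to 2.20 over the libraries. In LIPUS library 1 Mcm7 (19.6 TPM) was above Mcm5 (19.1 TPM). Their summed level was 89.2 ± 2.52 TPM (a level per length, scaled to the library) with LIPUS and 88.8 ± 2.31 TPM with LPS (SD, n = 3 each).

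**Figure D2:**
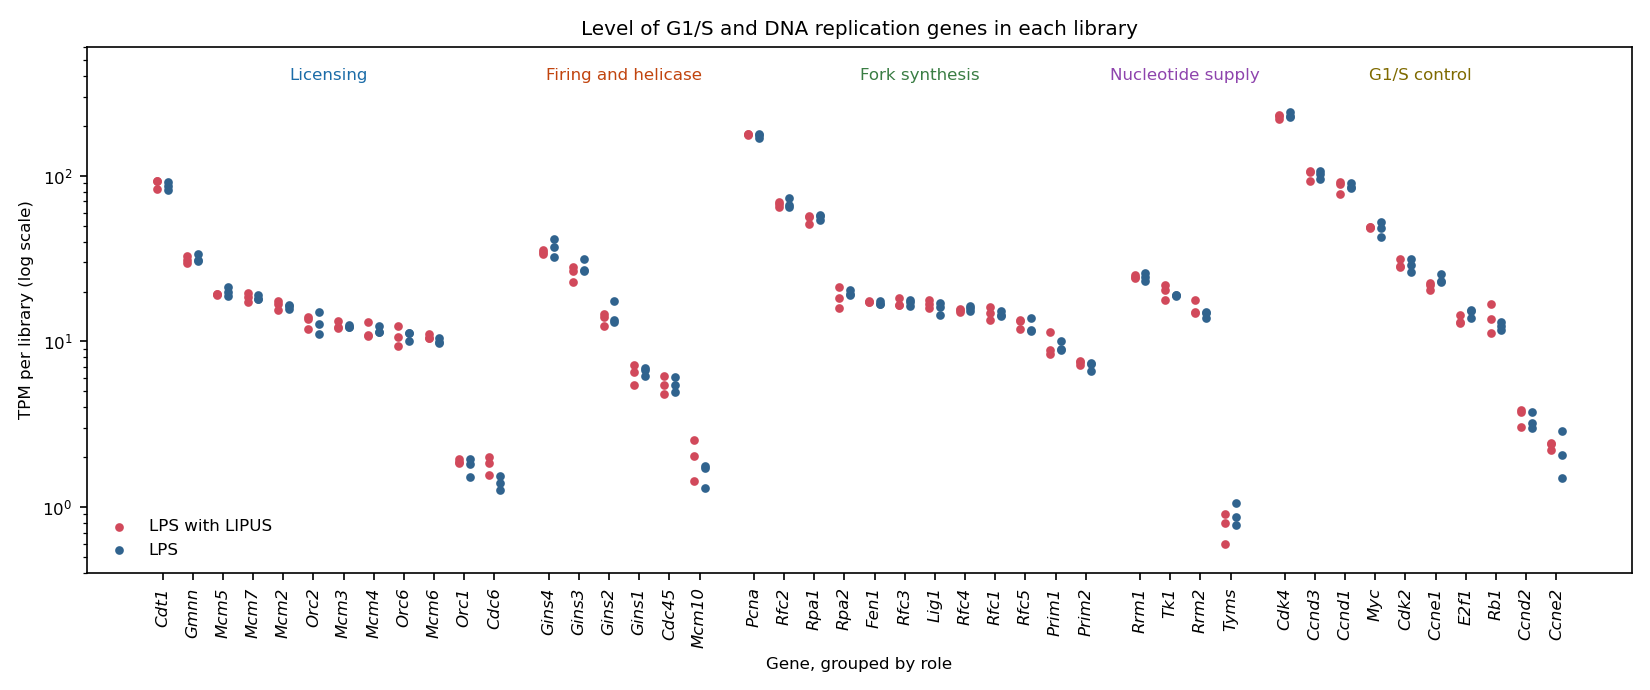
Level of each of the 44 genes in every library, in TPM on a log axis, grouped by role and ordered by mean level; red points are LPS with LIPUS and blue points LPS. Levels span 0.834 TPM (Tyms) to 230.8 TPM (Cdk4) as means over 6 libraries, with Cdt1, Gins4, Pcna, Rrm1 and Cdk4 the highest of their roles.

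Genes that fire origins and complete the fork helicase were the class with the lowest median level, 10.3 TPM, and 5 of its 6 members lay below 0 (median log2 fold change -0.09), with 0 called. Gins3, of the GINS complex that joins Cdc45 and the Mcm ring (mm10, chromosome 8, 95633559 to 95645059, plus strand), had the smallest p of the 44 genes. It had 30.3, 28.1 and 31.0 CPM with LIPUS and 31.7, 36.1 and 31.9 CPM with LPS. All LIPUS libraries lay below all LPS libraries, and 4.63% of all genes tested were separated in this direction. In TPM, which is scaled differently, its groups overlapped. The means were 29.8 ± 1.52 and 33.2 ± 2.51 CPM (SD, n = 3 each), and the difference was -0.16 ± 0.08 (log2 fold change with SE, 95% interval -0.33 to 0.01, unadjusted p = 0.0703, adjusted p = 0.999). Without LPS library 2, the highest of the 6, it was -0.09.

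The other GINS subunits had negative fold changes too, all with overlapping groups. Gins4, the most abundant member of the class per length, had 21.8, 24.0 and 22.1 CPM with LIPUS and 24.9, 26.9 and 21.6 CPM with LPS, and LPS library 3 was the lowest of all 6 libraries. The log2 fold changes of Gins1, Gins2 and Gins4 were -0.07 ± 0.16, -0.11 ± 0.16 and -0.11 ± 0.09 (SE). Gins4 exceeded Gins1 per length 4.74- to 6.67-fold, and the order Gins4, Gins3, Gins2, Gins1 held in all 6 libraries, although the subunits form a complex with 1 copy of each. The deposited length of Gins1 is 1610 bases and its longest deposited transcript 1087 bases, while both are 1364 bases for Gins4. A shorter length for Gins1 would lower this ratio. Cdc45 was at -0.03 ± 0.16.

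Mcm10, which helps to start the assembled helicase, varied most of the 44 genes, with a biological coefficient of variation of 14.7%. It had 56, 73 and 37 counts with LIPUS and 40, 52 and 49 with LPS, or 3.81, 5.12 and 2.56 CPM against 2.54, 3.30 and 3.30 CPM. LIPUS libraries 2 and 3 were the highest and the next to lowest of the 6, so the groups overlapped. Its log2 fold change of 0.33 ± 0.24 (SE, adjusted p = 0.999) became 0.55 when LIPUS library 3 was left out, 0.07 when LIPUS library 2 was and 0.21 when LPS library 1 was, and none of the 3 passed the test.

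The 12 genes of fork synthesis split 6 and 6 by sign around a median of 0.00 (log2 fold change), and 0 were called. Pcna, the sliding clamp and the most abundant of them, had 106.4, 113.9 and 102.3 CPM with LIPUS and 111.0, 106.0 and 103.8 CPM with LPS. LIPUS library 2 was the highest and LIPUS library 3 the lowest of the 6, and the difference was 0.01 ± 0.06 (log2 fold change with SE, 95% interval -0.11 to 0.12). Rpa2, a subunit of the single-strand binding protein, had the smallest p of the class with 17.9, 14.4 and 14.7 CPM with LIPUS and 17.0, 16.3 and 17.6 CPM with LPS. LIPUS library 1 was the highest of all 6 and the other LIPUS libraries the lowest, so the log2 fold change of -0.11 ± 0.11 (SE, unadjusted p = 0.308) rested on 2 of the 3 LIPUS libraries. Its partner Rpa1 was at -0.06 ± 0.05.

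The clamp loader genes Rfc1 to Rfc5 had log2 fold changes between -0.06 and 0.04. Rfc2 stood out among them in level: per length it made up 52.8 ± 1.26% of the summed Rfc level with LIPUS and 53.2 ± 1.21% with LPS (SD, n = 3 each). The primase genes Prim1 and Prim2 (0.01 ± 0.15 and 0.04 ± 0.11), the flap nuclease gene Fen1 (0.02 ± 0.08) and the ligase gene Lig1 (0.06 ± 0.09, all log2 fold changes with SE) lay near 0.

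The 4 genes of nucleotide supply gave 2 positive and 2 negative fold changes with a median of 0.02 (log2) and 0 called. Rrm2, the small subunit of ribonucleotide reductase, had 15.6, 16.6 and 17.6 CPM with LIPUS and 14.9, 15.7 and 15.8 CPM with LPS, overlapping only through LIPUS library 1, and differing by 0.10 ± 0.10 (log2 fold change with SE, 95% interval -0.10 to 0.31, unadjusted p = 0.309). Rrm1, the large subunit and the most abundant of the 4, had 46.5, 51.2 and 43.6 CPM with LIPUS and 48.3, 43.8 and 50.1 CPM with LPS, and its log2 fold change was -0.01 ± 0.08. Tk1, which salvages thymidine, was at 0.05 ± 0.10. Tyms, which makes thymidylate, was the lowest of the 44 genes at 0.77 ± 0.15 TPM with LIPUS and 0.90 ± 0.14 TPM with LPS (SD, n = 3 each), from 27 to 52 counts per library. The difference was -0.23 ± 0.24 (log2 fold change with SE, 95% interval -0.75 to 0.28). It was -0.42 when LIPUS library 2 was left out, -0.05 when LIPUS library 3 was and -0.11 when LPS library 3 was, and Tyms passed the test in none of these. TPM divides by the deposited gene length, which for Tyms is 6832 bases and for Orc1 8141 bases, longer than their longest transcripts in the deposited table (5029 and 7861 bases). A shorter length would give these 2 genes a higher TPM. The same holds for other genes of the 44. Among them are Gins1 (1610 bases against 1087), Prim2 (3604 against 2113), Rb1 (6420 against 4656) and Mcm7 (3168 against 2722). Tk1 (1747 against 1369) and Ccnd3 (2513 against 2119) are others. Comparisons per length between genes depend on these lengths.

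The 10 genes of G1/S control split 5 and 5 by sign (median log2 fold change -0.01), and 0 were called. Cdk4, a kinase of the D cyclins, was the most abundant of all 44 genes per length. It had 157.5, 167.1 and 142.7 CPM with LIPUS and 158.6, 154.8 and 168.5 CPM with LPS. LIPUS library 3 was the lowest and LPS library 3 the highest of the 6, and the difference was -0.04 ± 0.06 (log2 fold change with SE, 95% interval -0.17 to 0.08). Of its cyclins, Ccnd3 and Ccnd1 were abundant and Ccnd2 low. Ccnd3 had 101.7 ± 7.07 TPM with LIPUS and 101.5 ± 6.25 TPM with LPS, Ccnd1 85.8 ± 7.64 and 86.9 ± 3.10 TPM, and Ccnd2 3.54 ± 0.45 and 3.32 ± 0.40 TPM (SD, n = 3 each). This order held in all 6 libraries per length, while by counts Ccnd1, with the longer gene model, was above Ccnd3 in each. The log2 fold changes were -0.02 ± 0.05, -0.04 ± 0.05 and 0.07 ± 0.13 (SE).

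E2f1, which encodes an activating E2F factor (mm10, chromosome 2, 154559400 to 154569892, minus strand), had 19.0, 20.8 and 20.3 CPM with LIPUS and 21.2, 22.7 and 23.1 CPM with LPS. All LIPUS libraries lay below all LPS libraries in CPM, while in TPM the groups overlapped. The means were 20.03 ± 0.89 and 22.4 ± 1.00 CPM (SD, n = 3 each), and the difference was -0.16 ± 0.09 (log2 fold change with SE, 95% interval -0.34 to 0.02, unadjusted p = 0.083, adjusted p = 0.999). Ccne1, a cyclin E gene, had 20.3, 22.4 and 18.2 CPM with LIPUS and 22.3, 21.4 and 24.4 CPM with LPS. LIPUS library 2 reached into the LPS range, and the difference was -0.16 ± 0.10 (log2 fold change with SE, 95% interval -0.36 to 0.04, unadjusted p = 0.112). It was -0.08 without LIPUS library 3 and -0.10 without LPS library 3. Ccne2, the other cyclin E gene, was 8.01- to 17.1-fold lower than Ccne1 per length and had a log2 fold change of 0.10 ± 0.23. Cdk2, the kinase of both, was at 0.00 ± 0.08.

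Rb1, which encodes the retinoblastoma protein that holds E2F factors back, had 41.5, 36.7 and 48.9 CPM with LIPUS and 41.6, 35.9 and 38.6 CPM with LPS. LIPUS library 3 was the highest of the 6 and the other 5 libraries were intermixed. The difference of 0.13 ± 0.09 (log2 fold change with SE, 95% interval -0.07 to 0.32, unadjusted p = 0.179) was 0.02 without LIPUS library 3, 0.22 without LIPUS library 2 (unadjusted p = 0.0188, adjusted p = 0.564 by edgeR) and 0.08 without LPS library 2. Myc, the growth factor-responsive transcription factor gene, had a log2 fold change of 0.01 ± 0.08. In all, 3 of the 44 genes had groups that did not overlap, Cdc6 with LIPUS higher and Gins3 and E2f1 with LIPUS lower, against 5.09% and 4.63% of all genes tested.

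**Figure D3:**
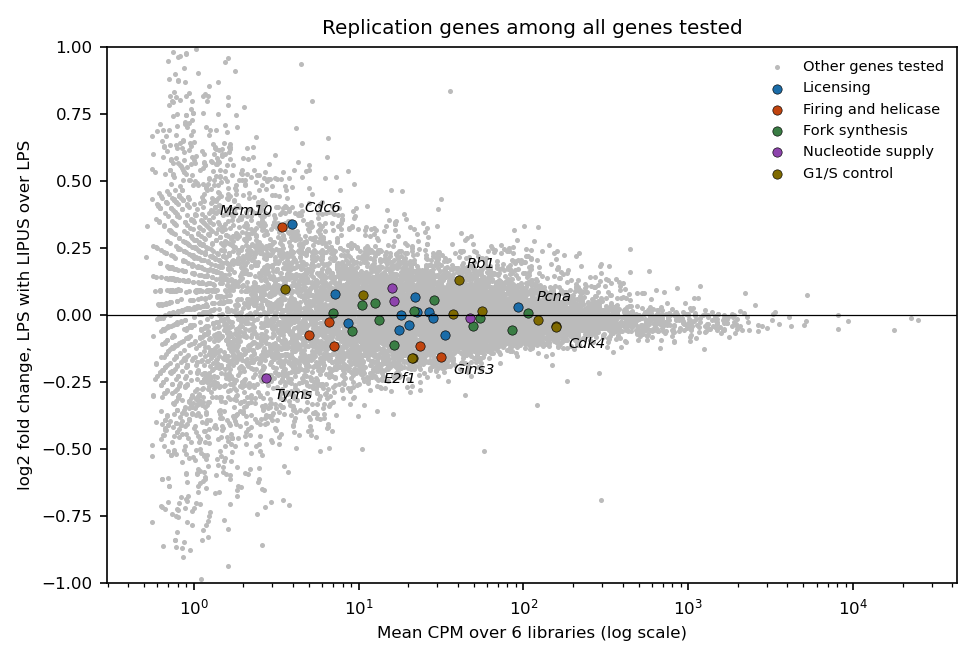
Log2 fold change against mean CPM over the 6 libraries (log axis) for the 12571 genes tested, with the 44 replication genes coloured by role; 29 genes with an absolute log2 fold change above 1 lie outside the range drawn. The coloured points lie within the grey cloud at their level, from -0.23 (Tyms) to 0.34 (Cdc6).

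The 3 LIPUS libraries differed among themselves in the level of these genes. For each library the median over the 44 genes of the deviation from the gene's mean (log2 CPM) was 0.00, 0.06 and -0.07 in LIPUS libraries 1 to 3 and 0.01, -0.01 and 0.01 in LPS libraries 1 to 3. LIPUS library 2 had 15 of the 44 genes below their mean and LIPUS library 3 had 30, while the LPS libraries had 19, 25 and 21. The group means of this median differed by -0.004, and its pooled SD within groups was 0.04. The deviation was spread over the roles in LIPUS library 2, from 0.03 for licensing to 0.09 for nucleotide supply. In LIPUS library 3 it was -0.17 for firing genes, -0.08 for fork synthesis and 0.00 for licensing. Single roles also deviated in LPS libraries, with firing genes at 0.05 in library 1 and 0.09 in library 2 and nucleotide supply at -0.07 in library 2. Over all genes tested, LIPUS libraries 2 and 3 were also the least alike pair within a group. Their chi-square was 9.76 per degree of freedom, against 2.63 to 4.77 for the other 5 pairs.

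**Figure D4:**
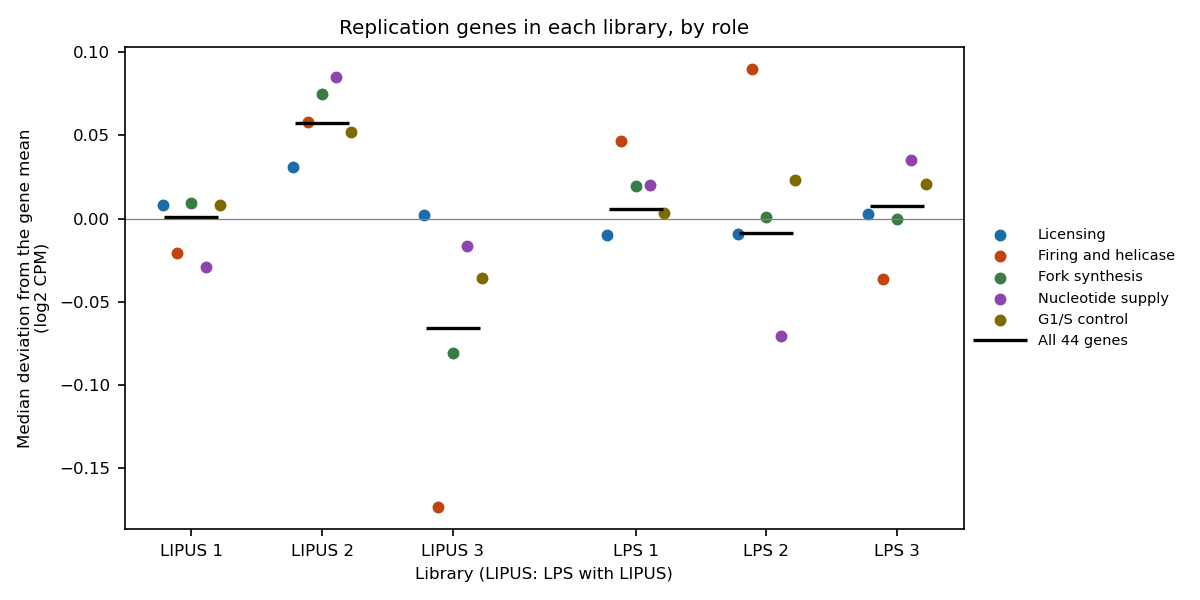
Median deviation from the gene mean (log2 CPM) in each library, for each role (coloured points) and for all 44 genes (black bars). The black bars of LIPUS libraries 2 and 3 lie on either side of 0 at 0.06 and -0.07 and those of the LPS libraries within 0.01 of it, while single roles in LPS library 2 range from -0.07 to 0.09.

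The biological coefficient of variation of single genes was lowest for Ccnd1 (4.32%) and Cdt1 (4.34%) and highest for Mcm10 (14.7%), Ccne2 (13.4%) and Tyms (12.7%), with a median of 6.30% over the 44 genes against 6.39% over all genes tested.

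The transcript table gave the same picture. It held 113 transcripts of the 44 genes, all tested, and 0 were called or had an unadjusted p below 0.05; over all 52257 transcripts tested 0% were called. Their log2 fold changes ran from -0.26 (a Tyms transcript) to 0.36 (an Mcm10 transcript). Reads count for several transcripts in that table, so transcripts of 1 gene are not separate measurements. For Ccnd3, the 6 transcripts had log2 fold changes from -0.06 to -0.01, and for Ccne2 the 7 transcripts 0.04 to 0.20.

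In the genome the 44 genes were spread over 16 chromosomes, with 6 on chromosome 5 (Mcm7, Rfc1, Rfc2, Rfc3, Rfc5 and Tyms) and 6 on chromosome 8 (Mcm5, Orc6, Cdt1, Gins2, Gins3 and Gins4). By deposited positions 18 of the 44 overlap another gene. For 14 the partner has more than 10% of the member's counts, on the opposite strand in 13 of them. Whether reads were counted by strand is not given in the sources used here, so reads from the shared bases cannot be assigned. Among partners with more counts than the member, the longest overlaps were 5622 bases of Ccne2 with Ints8, which has 2336 counts over the libraries against 322 for Ccne2, and 3632 bases of Orc1 with Prpf38a (2495 against 641 counts). The pseudogene Tyms-ps, a copy that could share reads with Tyms, had 0 counts.

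The rest of the pathway was also without a call. Of 17 other origin licensing and firing genes, 11 lay above and 6 below 0 (median log2 fold change 0.03), and Orc3, another origin recognition subunit, was the only one with an unadjusted p below 0.05, at 0.17 ± 0.07 (SE, adjusted p = 0.999). Of 18 other fork and nucleotide genes, 9 were positive and 9 negative (median 0.00), with 0 called. Of 28 other G1/S regulators 24 were tested, 15 positive and 9 negative (median 0.01), with E2f6, a repressive E2F factor, at -0.17 ± 0.08 (unadjusted p = 0.0487, adjusted p = 0.999). The median over all genes tested was -0.01.

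Among these regulators, levels rather than differences stood out, and the genes in the following sentences were chosen after their values were seen. Cdkn1a, which encodes the Cdk inhibitor p21, was at 602.0 ± 3.86 TPM with LIPUS and 594.2 ± 9.43 TPM with LPS (SD, n = 3 each), above Cdk4, the highest of the 44 genes. Its log2 fold change was 0.00 ± 0.06 (SE). Mycn, a Myc relative best known from neural tissue and neuroblastoma, was at 410.6 ± 36.1 TPM with LIPUS and 407.3 ± 25.3 TPM with LPS, while Myc had 48.9 ± 0.64 and 47.8 ± 5.17 TPM (SD, n = 3 each). The Mycn log2 fold change was -0.01 ± 0.05, and no other deposited gene overlaps its position (mm10, chromosome 12, 12936093 to 12941836, minus strand). Of the inhibitors of Cdk4 and Cdk6, Cdkn2d and Cdkn2c were at 50.2 ± 2.28 and 20.9 ± 2.57 TPM with LIPUS and 50.4 ± 1.49 and 20.8 ± 1.43 TPM with LPS. Cdkn2a and Cdkn2b had 0 counts in all 6 libraries, and so had Cdkn1c. For counting error only, 0 counts leave room for 3, or 0.190 to 0.210 CPM in a library.

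**Figure D5:**
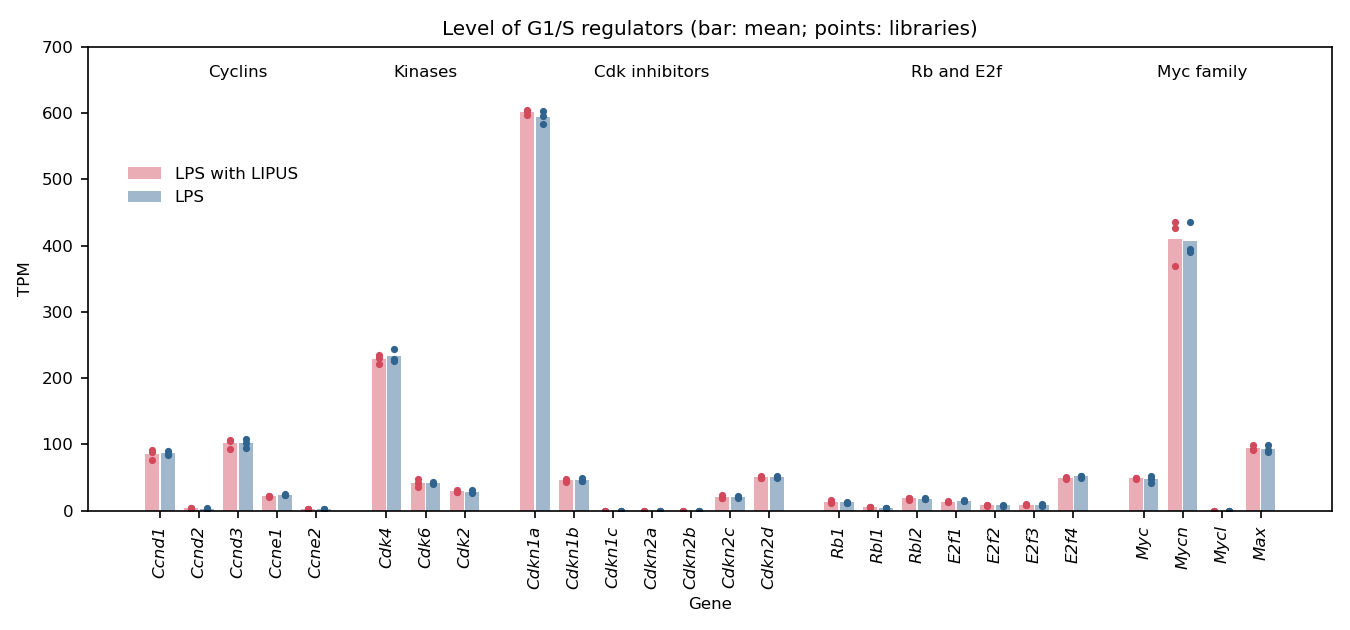
Level of G1/S regulators in TPM; bars are group means (red, LPS with LIPUS; blue, LPS) and points single libraries. Cdkn1a and Mycn stand above Cdk4 in both groups, and Cdkn1c, Cdkn2a and Cdkn2b are at 0 in every library.

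The related cell cycle lists differed from the 44 genes in how many had an unadjusted p below 0.05, and the difference between lists was not tested. Over all genes tested 4.61% had such a p, 376 genes higher and 203 lower with LIPUS. Both lists were chosen with earlier results of these data known, so their signs and low p-values are not an independent result. Of 16 G2/M genes 7 were positive and 9 negative with a median of -0.01 (log2), and 3 had an unadjusted p below 0.05, all higher with LIPUS. These were Mki67, the proliferation marker (0.25 ± 0.05, adjusted p = 0.284), and the kinetochore genes Cenpe (0.27 ± 0.10, adjusted p = 0.890) and Cenpf (0.36 ± 0.14, adjusted p = 0.999). Of 10 replication-dependent histone genes 8 were tested and all 8 had a positive fold change (median 0.68), with 0 called. H1f4, H4c4, H1f5 and H2ac20 had an unadjusted p below 0.05. Of these, H4c4, H1f5 and H2ac20 held only 82, 74 and 79 counts over all 6 libraries, and H1f4 394. Counts of the histone genes are uncertain, because most messages of this kind carry no poly(A) tail and the genes share near-identical sequence.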

How the data were processed

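Poly(A)-selected RNA of 6 RAW264.7 libraries was sequenced as paired-end Illumina reads, per the labels' protocols. Per the submitters' processing notes, bcl2fastq and the mm10 build were used. Aligner, counter, strand setting and annotation release: not given in the sources used here. The authors deposited raw read counts per gene and per transcript, with the deposited gene or transcript length in bases, and TPM, which per the file headers is a level per length. The authors' deposited comparison tables hold a log2 fold change, an unadjusted p-value and a normalised count per library, a signal not used for tests here.

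Groups were compared in R 4.3.3 by the quasi-likelihood test of edgeR 4.0.16, with TMM scaling, group as the only term, two-sided and adjusted over all genes tested at a threshold of 0.05. The filter (filterByExpr, minimum count 10) kept 12571 of 39089 genes and 99.9% of the counts. Intervals are at 95%. Alternatives were DESeq2 1.42.0, limma 3.58.1 (voom, and trend on log2 TPM), other scalings and filters, a replicate block and leaving out each library. The procedure was tested on simulated data. Replicates of a group differed by more than sampling noise (chi-square of 2.63 to 9.76 per degree of freedom).

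The 44 genes and the other lists were chosen with earlier results of these data known. Every one of the 44 is named; values in each library are given for the gene with the smallest p and the highest TPM in each role, the 3 smallest p in each direction and those whose groups do not overlap. Genes of the other lists are named where their unadjusted p is below 0.05, except for an item that is not reported here.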

Additional observations from a re-analysis of the deposited data

How the results depend on the processing

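The call on the 44 genes held under all 15 alternatives run: 0 were called under each, and the smallest adjusted p of any of them was 0.564, for Rb1 without LIPUS library 2. Their median log2 fold change stayed between -0.03 and 0.03, with the extremes without LIPUS library 2 and without LIPUS library 3, and the number with a positive fold change between 15 and 26 under the same pair. An unadjusted p below 0.05 appeared for Ccne1 and Rb1 without LIPUS library 2 and for Gins3 and Mcm10 without LIPUS library 3. The count over all genes was 0 in the main test and under DESeq2, both other scalings, limma-voom, both TPM fits and a filter of 1 CPM, 31 with no filter on low counts and 0 to 6 when 1 library was left out. With the replicate number as a block it was 5, none of them among the 44. Same-numbered libraries did not deviate together (correlations of -0.07 to 0.01 across genes). With 3 libraries per group this cannot settle whether same-numbered libraries were handled together, and the labels do not say.

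Of the 44 genes, 21 kept their sign under every alternative and 23, all with a main log2 fold change of at most 0.11 in size, did not. On log2(TPM + 1) and on log2(TPM + 0.1) the log2 fold changes were 0.0085 and 0.0088 for Mcm7, 0.0082 and 0.0085 for Rfc1, 0.0088 and 0.0092 for Rrm1 and 0.0024 in both for Ccnd3. Mcm3 was at -0.0040 with limma-voom and at -0.00061 with the replicate block. Leaving out 1 library at a time gave log2 fold changes of Ccnd2 -0.0159 to 0.19, Ccnd3 -0.0523 to 0.0134, Ccne2 -0.10 to 0.38, Cdc45 -0.10 to 0.0945, Cdk2 -0.0532 to 0.0789, Cdk4 -0.10 to 0.0181, Fen1 -0.0217 to 0.0568, Gins2 -0.21 to 0.0172, Lig1 -0.021 to 0.13, Mcm3 -0.0922 to 0.0608, Mcm4 -0.0865 to 0.022, Mcm7 -0.0425 to 0.0271. It also gave Myc -0.0546 to 0.0779, Orc1 -0.00845 to 0.16, Orc2 -0.0789 to 0.14, Orc6 -0.0903 to 0.0191, Pcna -0.0361 to 0.0452, Prim1 -0.12 to 0.10, Rfc1 -0.0333 to 0.0123, Rfc2 -0.0903 to 0.0219, Rfc3 -0.0556 to 0.0452, Rfc5 -0.0451 to 0.13 and Rrm1 -0.0728 to 0.0469. None of these values passed the test, and the cause was not tested. Depth limits Cdc6, Mcm10, Tyms and Ccne2 most, with 248 to 352 counts over all libraries.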

Other observations

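Cdkn2a and Cdkn2b, neighbours on chromosome 4 (mm10, 89274473 to 89294619 and 89306289 to 89311032), had no count in any library, while Mtap, the nearest gene on 1 side with appreciable counts (89137370 to 89181090), was well covered with 408, 363 and 461 counts in LIPUS libraries and 528, 484 and 494 in LPS libraries. Klhl9, farther on the same side (88718292 to 88722508), had 1370, 1408 and 1452 counts in LIPUS libraries and 1416, 1400 and 1366 in LPS libraries. The deposited genes between Cdkn2a and the next gene on the other side, Dmrta1 (89688198 to 89694766), were also at 0, and Dmrta1 itself had 1 count in all. These genes were picked after their values were seen.

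Mycn held 45917 counts over the 6 libraries against 5020 for Myc. By TPM Mycn ranked 303 and Cdkn1a 213 among the 39089 deposited genes, while Cdk4, the highest of the 44 replication genes, ranked 547 and Pcna 713.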
